A study of Mus musculus with 5 samples.

Results

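The genes described here encode the mouse ATG8 proteins and the enzymes that act on them directly. They are 5 ATG8 genes (Map1lc3a, Map1lc3b, Gabarap, Gabarapl1 and Gabarapl2), 4 ATG4 protease genes (Atg4a, Atg4b, Atg4c and Atg4d) and Atg7, chosen by name. The choice was made with earlier results of these data known. All 10 had a probe set paired with their symbol alone, among 22180 genes tested. Expression was measured on 5 one-colour microarrays of Ter119-selected bone marrow cells, in which the Ter119 antigen marks cells of the red cell lineage. Of these arrays, 2 carried RNA of mice with the genotype Polgtm1Lrsn wt/wt (WT) and 3 that of Polgtm1Lrsn mt/mt mice (Polg mutant). Polg encodes the mitochondrial DNA polymerase, and the mutant mice accumulate mutations in mitochondrial DNA. The series title calls the mutant mice aged, and its design text says that the mice were phlebotomized, that is bled, while the labels give the treatment as none. The sources used here give neither ages nor a bleeding schedule.

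Every mouse had a C57BL/6 background and came from the same type of mating, in which both parents were Atg7 flox/flox and PolG wt/mt and the father was Epo-cre ki/wt. Both genotype groups could therefore include mice with or without the Cre allele, and the labels do not say which. Before Ter119 selection, cells bearing the leukocyte antigen CD45 had been removed on magnetic beads. The labels do not tie the arrays to separate animals. The p-values therefore reflect no more than the variation among these 5 samples, and that variation may be technical.

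ATG8 proteins are small ubiquitin-like proteins that become attached to the lipid phosphatidylethanolamine on the growing autophagosome membrane, where they help close the vesicle and bind receptors that bring cargo in. An ATG4 protease first trims the ATG8 carboxy terminus to a glycine, ATG7 activates that glycine as an E1-like enzyme, ATG3 passes it on, and the ATG12-ATG5-ATG16L1 complex completes the transfer to the lipid. ATG4 proteases can later cut the ATG8 protein off the membrane again. Maturing red cells use this system to clear mitochondria and other organelles.

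The data were log2 expression values for 41345 probe sets per array, with array medians between 5.10 and 5.13. Across genes, which are not independent replicates, Pearson's r was 0.990 to 0.995 within groups and 0.983 to 0.991 between them. The targeted gene, Polg, was listed at 6.97 on every array, so its level does not check the labels. The mean over the 9 erythroid marker genes analysed was 11.6 to 12.0 on every array. The mean was 5.39 to 5.63 over 10 macrophage markers, 5.06 to 5.47 over 9 lymphocyte markers and 6.38 to 7.26 over 7 megakaryocyte markers. Over 15 neutrophil markers it ran from 7.20 to 8.97, the widest range between arrays of these lists. Levels of different probe sets are not comparable, so these means serve to follow each list across arrays. In all 9 erythroid markers every Polg mutant array was below both WT arrays, where 9.73% of all genes were lower in this way. Many values were exactly tied between arrays. A gene had the same value on at least 2 arrays in 67.9% of genes, on exactly 4 in 14.0% and on all 5 in 5.11%. Among the 10 genes described here, 6 had 5 distinct values, and the tied ones were Map1lc3a, Atg4b, Atg4c and Atg7.

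Of the 10 genes, Atg4d was the one whose groups did not overlap. It was 1.60-fold lower in Polg mutant than in WT cells. Gabarapl1 had the largest difference in the other direction, 1.42-fold higher in the mutant, but its groups overlapped. The other 8 differences lay between -0.14 and 0.15 log2 units. By limma, adjusted over all genes tested, 0 of the 10 passed the threshold of 0.05, as did 0 of all 22180 genes. At an unadjusted limma p under 0.05 there was 1 of the 10, Atg4d, against a background of 9.51% of all genes. By direction these were 0 higher, where the background was 4.18%, and 1 lower, where it was 5.33%. Every mutant array was above both WT arrays for 0 of the 10 and below both for 1, against 8.36% and 9.73% of all genes and 18.1% in both directions together. With 1 gene in 10, both counts are close to or under the background and are no result about the set. The median difference of the 10 was 0.015 and that of all genes was 0.

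**Figure D1:**
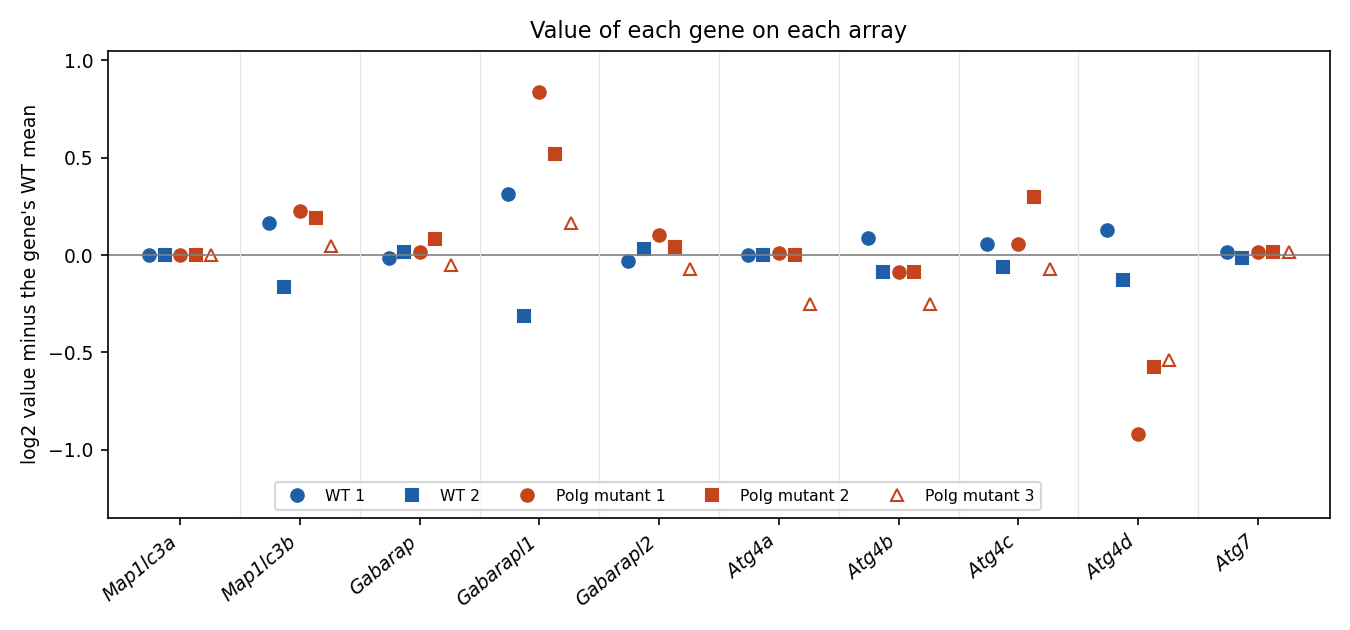
Each point is 1 array, plotted as the log2 value of the gene minus that gene's WT mean, with blue for the 2 WT and orange for the 3 Polg mutant arrays. Atg4d is the gene whose mutant points all lie below both WT points, Gabarapl1 has the widest scatter in both groups, and Map1lc3a lies at 0 on every array.

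The ATG8 genes form an LC3 branch (Map1lc3a and Map1lc3b) and a GABARAP branch (Gabarap, Gabarapl1 and Gabarapl2). Map1lc3b, whose protein LC3B is the usual marker of autophagosomes, was at 11.46 and 11.14 on the WT arrays and at 11.53, 11.49 and 11.35 on the mutant arrays. WT replicate 2 was the lowest, and WT replicate 1 lay above Polg mutant replicate 3. The difference was 0.15 ± 0.13 (SE, limma adjusted p = 0.665), with a 95% interval from -0.21 to 0.52. Without WT replicate 2 it was -0.0097. Map1lc3a, the other LC3 gene, was listed at 6.38 on all 5 arrays. Its difference of 0 came with no spread between arrays, and the SE of 0.015 that limma gave it comes from the variance shared over all genes.

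Gabarapl1 was at 9.40 and 8.77 in WT and at 9.92, 9.61 and 9.25 in Polg mutant cells. The 2 highest values were mutant and the lowest was WT, but WT replicate 1 exceeded Polg mutant replicate 3. The means were 9.09 ± 0.45 (SD, n = 2) and 9.60 ± 0.34 (SD, n = 3), and the difference was 0.51 ± 0.31 (SE, limma adjusted p = 0.638). Its 95% interval, from -0.38 to 1.39, was the widest of the 10. Over the 5 arrays Gabarapl1 spanned 1.15 log2 units, a span that 3.27% of all genes reached. Its difference depended on which WT array was kept, at 0.19 without WT replicate 2 and 0.82 without WT replicate 1.

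Gabarap, the founding member of its branch, was at 12.10 and 12.13 in WT and at 12.13, 12.20 and 12.07 in the mutant. The mutant arrays included both the highest and the lowest value. The difference was 0.017 ± 0.048 (SE, limma adjusted p = 0.911), with a 95% interval from -0.12 to 0.15. A second, dimmer probe set for Gabarap read 9.14 and 9.63 in WT and 9.56, 9.62 and 9.56 in the mutant. There WT replicate 1 was the low array and WT replicate 2 the highest of the 5, and the difference was 0.19 ± 0.17 (SE, limma adjusted p = 0.741 in a fit to all probe sets). Neither probe set separated the genotypes, and whether their differences were unequal was not tested. Gabarapl2, also known as GATE-16, was at 9.73 and 9.80 in WT and at 9.87, 9.81 and 9.70 in the mutant. Its difference was 0.025 ± 0.064 (SE, limma adjusted p = 0.898), with a 95% interval from -0.16 to 0.21. The intervals of Gabarap and Gabarapl2 were thus narrower than those of Map1lc3b and Gabarapl1.

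**Figure D2:**
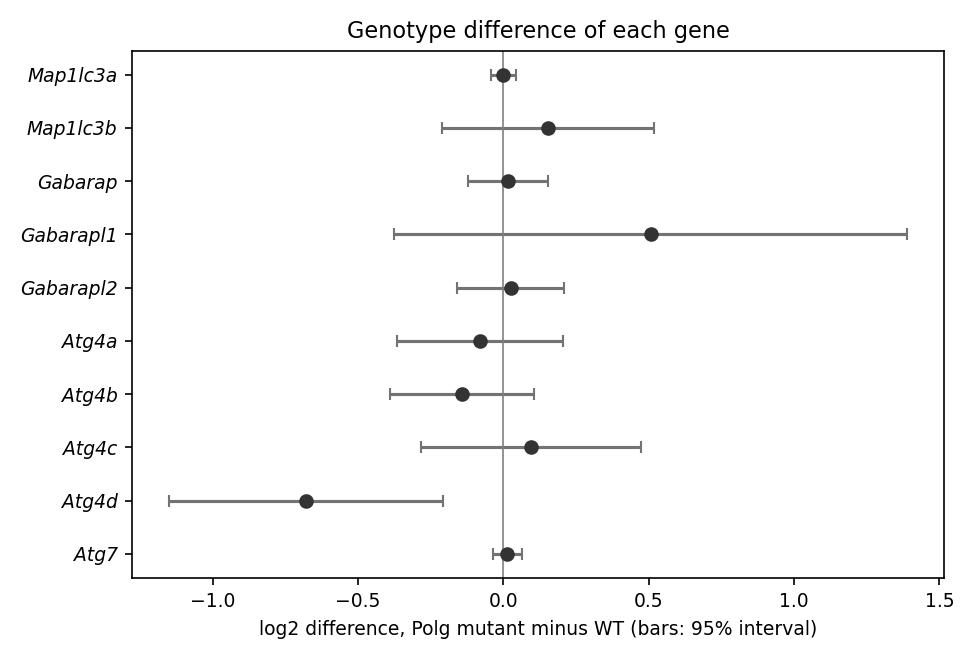
Points are log2 differences, Polg mutant minus WT, and bars are 95% intervals from limma's moderated test, not adjusted for the number of genes tested (2 WT and 3 Polg mutant arrays). The interval of Atg4d, -1.15 to -0.21, is the one that does not reach 0, and that of Gabarapl1 is the widest.

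The ATG4 family comprises ATG4B, the main protease for most ATG8 proteins in cells, ATG4A, which prefers the GABARAP branch, and ATG4C and ATG4D, which have little activity as full-length proteins and can be activated by caspase cleavage. A truncated form of ATG4D can enter mitochondria. Atg4d read 10.37 and 10.11 on the WT arrays and 9.32, 9.66 and 9.70 on the mutant arrays. All 3 mutant values lay below both WT values, and the gap between the lower WT and the highest mutant array was wider than the gap between the WT arrays. The means were 10.24 ± 0.18 (SD, n = 2) and 9.56 ± 0.21 (SD, n = 3). The difference was -0.68 ± 0.16 (SE, unadjusted p = 0.0169, limma adjusted p = 0.344). A difference of this size or larger, in either direction, was seen in 2.34% of all genes. By an exact two-sided permutation test p was 0.1, the smallest that the 10 splits of 5 arrays allow. Leaving out 1 array at a time gave -0.81 to -0.55. Groups that are separate on all arrays cannot overlap once an array is removed, so these subsets do not test the separation. Without WT replicate 1 its unadjusted limma p was no longer under 0.05. The erythroid marker list was also lower on every mutant array, with means of 12.02 and 11.85 in WT and 11.59, 11.68 and 11.64 in the mutant. In such bulk samples fewer cells of a type and less RNA per cell cannot be told apart, and the part of cell composition in the difference of Atg4d was not tested.

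The other Atg4 genes showed no such separation. Atg4b was at 9.24 and 9.06 in WT and at 9.06, 9.06 and 8.90 in the mutant, where WT replicate 2 and Polg mutant replicates 1 and 2 shared exactly 1 value. No mutant array was above a WT array, but these ties mean that the groups touch, and the difference was -0.14 ± 0.087 (SE, limma adjusted p = 0.638; 95% interval -0.39 to 0.11). Atg4a was nearly constant on 4 arrays, at 11.51 and 11.51 in WT and 11.52 and 11.51 in mutant replicates 1 and 2, and was lower on Polg mutant replicate 3, at 11.26. That array alone set its difference of -0.081 ± 0.10 (SE, limma adjusted p = 0.755), since without it the difference was 0.0044. Atg4c was dim, below a log2 of 6 on every array, at 5.41 and 5.30 in WT and at 5.41, 5.65 and 5.28 in the mutant. The mutant arrays included both its highest and its lowest value, and the difference was 0.094 ± 0.132 (SE, limma adjusted p = 0.773; 95% interval -0.28 to 0.47). The median difference of the 4 protease genes was -0.11 and that of the 5 ATG8 genes was 0.025.

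The sequence upstream of Atg4d is printed because it is the gene whose groups did not overlap, that of Atg4a because it is the paralog with the same motif but a difference near 0, and that of Gabarapl1 because its values spread the most. RefSeq promoter windows of 300 bases on GRCm38.p6 (250 before and 50 after a start site) were matched for 9 of the 10 genes, in 11 windows. Map1lc3a was not matched. From each window only the bases before the first annotated base of the gene are printed, 5′ to 3′ on the + strand, which for Atg4d are 170 bases because an earlier start site lies within its window. Capitals mark AGATAA, a binding sequence of GATA factors. The stretches are chr9:21265035-21265204 for Atg4d, chrX:140953595-140953844 for Atg4a and chr6:129532942-129533191 for Gabarapl1.
Atg4d: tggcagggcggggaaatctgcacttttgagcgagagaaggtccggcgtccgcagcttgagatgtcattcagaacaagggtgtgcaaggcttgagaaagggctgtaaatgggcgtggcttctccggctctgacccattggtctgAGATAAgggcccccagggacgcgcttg
Atg4a: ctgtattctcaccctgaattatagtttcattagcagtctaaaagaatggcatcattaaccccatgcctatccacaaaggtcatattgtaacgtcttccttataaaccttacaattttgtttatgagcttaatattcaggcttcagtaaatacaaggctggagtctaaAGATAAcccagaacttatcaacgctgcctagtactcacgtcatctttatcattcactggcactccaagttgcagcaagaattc
Gabarapl1: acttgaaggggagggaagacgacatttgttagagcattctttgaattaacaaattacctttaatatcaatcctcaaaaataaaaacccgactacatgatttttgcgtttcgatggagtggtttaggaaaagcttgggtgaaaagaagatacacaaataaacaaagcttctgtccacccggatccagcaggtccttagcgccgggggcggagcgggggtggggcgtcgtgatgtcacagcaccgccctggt

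Motifs were searched on both strands over whole windows, and none of the matches overlapped another motif. AGATAA was present in the windows of Atg4d and Atg4a, at positions -107 and -83 from the start site of each window, and in 11.2% of all 32851 windows. CACGTG, the core that the lysosome and autophagy regulators TFEB and TFE3 bind, was present in the Atg7 window and in 7.15% of all windows. That Atg7 window begins within the annotated gene, so its start site is not the first of the gene. GTAAACA, a FOXO sequence, was found in 0 of the 11 windows of these genes and in 3.65% of all, and TGATGNAA, a composite sequence of ATF4, in 0 of the 11 and in 3.97% of all. Upstream of Atg4d, G and C made up 58.2% of bases, against 38.0% for Atg4a and 46.8% for Gabarapl1. Both Atg4d and Atg4a hold AGATAA while their genotype differences were -0.68 and -0.081, and a match describes letters only.

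Whether paralogs differed in their change was asked within arrays, by subtracting the log2 value of one paralog from that of another on the same array, so that levels of different probe sets were not compared. This gave 16 pairs, 10 of ATG8 and 6 of Atg4 genes. The exact permutation test could not go below p = 0.1 in any pair, and after adjustment over the 16 pairs the smallest p was 0.533, so that no pair could pass. The pairs are therefore described by their values.

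Atg4c minus Atg4d was -4.95 and -4.82 in WT and -3.90, -4.01 and -4.42 in the mutant. All mutant arrays were above both WT arrays, and the mean was 0.77 higher (exact permutation p = 0.1, adjusted p = 0.533). Atg4a minus Atg4d was higher by 0.60 and Atg4b minus Atg4d by 0.54 in the mutant, each on all 3 mutant arrays (exact permutation p = 0.2 each). These 3 pairs share the values of Atg4d and are not independent of each other. Atg4b minus Atg4c was 3.82 and 3.77 in WT and 3.65, 3.41 and 3.62 in the mutant, lower by 0.23 with no overlap (exact permutation p = 0.1, adjusted p = 0.533). Both genes of that pair have tied values, and Atg4c is dim, below a log2 of 6 on every array. Thus 4 of the 6 Atg4 pairs did not overlap, 3 of which restate the separation of Atg4d itself. The pairs that overlapped were Atg4a with Atg4b and Atg4a with Atg4c. The share of other gene pairs without overlap was not computed, so this count is no result about the family.

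**Figure D3:**
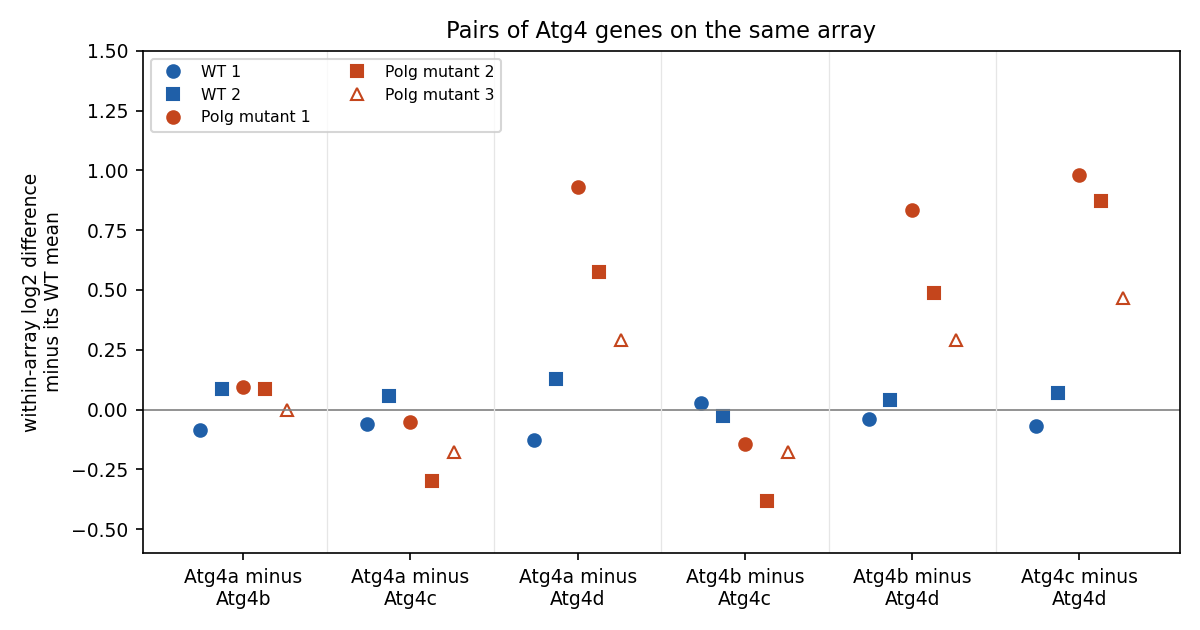
Each point is 1 array, plotted as the log2 difference between a pair of Atg4 genes on that array minus the WT mean of that difference. In the 3 pairs that include Atg4d all Polg mutant points lie above both WT points, by 0.54 to 0.77 on average.

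Among the ATG8 genes, 0 of 10 pairs were free of overlap, a count that likewise has no share of other gene pairs beside it. Gabarapl1 minus Gabarapl2 was -0.33 and -1.02 in WT and 0.057, -0.20 and -0.44 in the mutant, so that Polg mutant replicate 3 lay between the WT arrays. Its mean was 0.48 higher in the mutant (exact permutation p = 0.3). Gabarap minus Gabarapl1 was 0.49 lower and Map1lc3b minus Gabarapl1 was 0.35 lower (exact permutation p = 0.3 each). Gabarap minus Gabarapl2 was nearly level, at 2.37 and 2.34 in WT and 2.27, 2.39 and 2.37 in the mutant, a difference of -0.0076. The 4 pairs with Map1lc3a repeat the values of the other gene, because Map1lc3a was the same on every array.

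Atg7, the E1-like enzyme that activates both ATG8 proteins and ATG12, was at 7.74 and 7.71 in WT and at 7.74 on all 3 mutant arrays. Exactly the same value stood on 4 arrays, and WT replicate 2 was lower by 0.028. The difference was 0.014 ± 0.018 (SE, limma adjusted p = 0.758). The tie leaves the spread of Atg7 between the mutant arrays at 0, as for Map1lc3a on all arrays. The sources used here do not say which part of Atg7 this probe set covers. Its level therefore does not show whether any of the mice had lost the floxed part of the gene. A mean of 7.73 ± 0.02 (SD, n = 2) in WT against 7.74 in the mutant holds for that probe set only.

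Of the rest of the conjugation machinery all 8 listed genes were measured. At an unadjusted limma p under 0.05 there were 0 higher and 0 lower, against 9.51% of all genes in either direction, and their median difference was 0.029. The groups were free of overlap in 1 of the 8 (12.5%, against 18.1% of all genes). Atg16l1, the subunit that brings the ATG12-ATG5 conjugate to the membrane, read 8.40 and 8.15 in WT and 7.89, 8.12 and 8.12 in the mutant. It was lower on every mutant array, by a narrow gap, with a difference of -0.23 ± 0.13 (SE, limma adjusted p = 0.638). Atg3, the E2-like enzyme for ATG8 proteins, was at 7.58 and 7.09 in WT and 7.91, 7.72 and 7.18 in the mutant, with overlapping groups and a difference of 0.27 ± 0.30 (SE, limma adjusted p = 0.754). Atg5, Atg12 and Rab33b, the last a small GTPase that binds ATG16L1, differed by 0.10, -0.13 and 0.057, each with tied values and overlapping groups.

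Genes that start the autophagosome and supply its membrane, 22 in number, had a median difference of -0.037, with 1 higher and 1 lower at an unadjusted limma p under 0.05. That is 9.09%, against 9.51% of all genes, and 5 of the 22 had no overlap (22.7%, against 18.1%). Wipi1, which binds the phosphoinositide on the forming membrane, read 9.02 and 9.01 in WT and 8.72, 8.81 and 8.85 in the mutant. All mutant arrays were lower, by -0.22 ± 0.045 (SE, limma adjusted p = 0.283). Atg9b, a lipid scramblase gene, was higher by 0.10 from a low WT level of 4.71. Atg13, a subunit of the ULK1 kinase complex, differed by -0.33, and the membrane proteins Tmem41b and Vmp1 by -0.10 and 0.12, all 3 without overlap but with unadjusted p above 0.05.

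The receptors and adaptors that bind ATG8 proteins had 18 measured genes of 20, a median difference of -0.020, and 2 higher and 1 lower at an unadjusted limma p under 0.05. That is 16.7%, against 9.51% of all genes, and 5 of the 18 had no overlap (27.8%, against 18.1%). Sqstm1, which encodes the cargo receptor p62, was at 10.95 and 10.95 in WT and at 11.52, 11.41 and 11.23 in the mutant. Every mutant array was higher, by a mean of 0.44 ± 0.098 (SE, limma adjusted p = 0.319). Phb2, an inner mitochondrial membrane protein that binds LC3 when the outer membrane ruptures, was higher by 0.15 ± 0.027 (SE, limma adjusted p = 0.268). Wdfy3, a scaffold for clearing protein aggregates, differed by -0.46 ± 0.16 (SE, limma adjusted p = 0.520). Tbc1d15, a Rab GTPase-activating protein, differed by -0.35 without overlap, and Tex264, a receptor for the endoplasmic reticulum, by 0.20 with overlap. Bnip3l and Optn were not analysed here.

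Regulators of autophagy genes, 8 in all, had a median difference of 0.064 with 0 higher and 1 lower at an unadjusted limma p under 0.05. That is 12.5%, against 9.51% of all genes, and 2 of the 8, Foxo3 and Gata1, had no overlap (25%, against 18.1%). Foxo3, a forkhead factor that induces autophagy genes in erythroid cells, was at 10.08 and 10.12 in WT and at 9.68, 9.82 and 9.90 in the mutant. It was lower on all mutant arrays, by -0.30 ± 0.075 (SE, limma adjusted p = 0.360). Gata1, the erythroid GATA factor that acts with FOXO3 on such genes, differed by -0.12, also without overlap. Tfe3, Tfeb and Zkscan3 differed by 0.17, -0.060 and 0.080, each with ties and overlap.

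**Figure D4:**
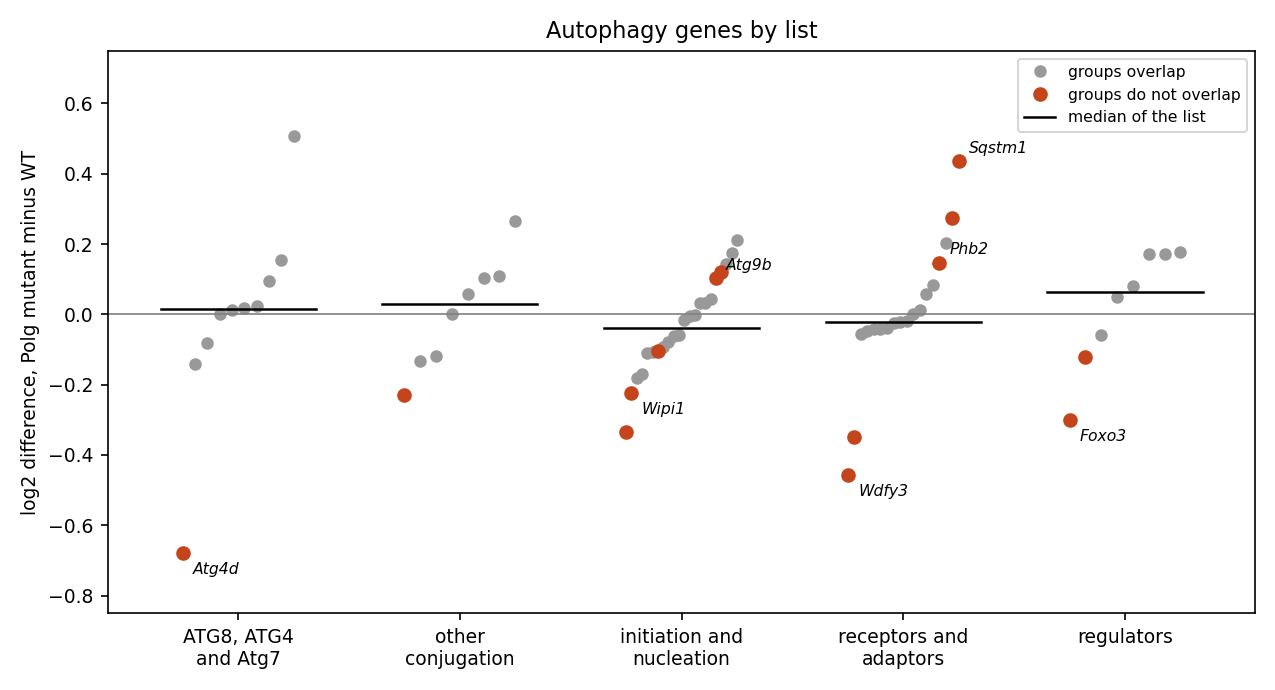
Points are log2 differences of single genes, Polg mutant minus WT, for the 10 genes described and for 4 lists of other autophagy genes, with bars at the list medians and names for unadjusted p under 0.05. Medians lie between -0.037 and 0.064, and Atg4d is the lowest point of all.

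The profile of Atg4d over the 5 arrays was most like those of Atad2, Prc1 and Rad21, by Pearson's r among the 7111 other genes with 5 distinct values. The r were 0.999 each over 5 arrays, given as a measure of likeness alone, since 386 genes had an r above 0.95. Prc1, which bundles microtubules of the mitotic midzone, read 11.48 and 11.25 in WT and 10.47, 10.81 and 10.80 in the mutant, a difference of -0.67. Atad2, a chromatin-bound ATPase gene, differed by -0.37 and Rad21, a cohesin subunit gene, by -0.38. As in Atg4d, WT replicate 1 was highest and Polg mutant replicate 1 lowest in all 3. Because the 3 were picked by their r with Atg4d, this order and their lower mutant values are no separate finding.

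Leukocyte transcripts also varied between arrays, in an order that Gabarapl1 and Map1lc3b shared in part. Ptprc, which encodes CD45, read 7.13 and 6.43 in WT and 7.67, 7.40 and 6.06 in the mutant. The neutrophil list, 15 genes, had means of 8.15 and 7.20 in WT and 8.55, 8.97 and 7.40 in the mutant. In each of these, and in both ATG8 genes, WT replicate 2 and Polg mutant replicate 3 were the lowest 2 arrays. The same held for Atg3 and for the means of the macrophage, lymphocyte and other conjugation lists. Within the neutrophil list, Ly6g and Mmp9 did not follow it. The share of all genes with these arrays lowest was not computed. The part of leukocytes in the values of Gabarapl1 and Map1lc3b was not tested. None of the 15 neutrophil markers was free of overlap between genotypes, against 18.1% of all genes. Their median difference was 0.63, with 13 positive and 2 negative. The order of arrays in Atg4d differed, with WT replicate 2 above all mutant arrays. The part of leukocytes in the values of Atg4d was likewise not tested.

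**Figure D5:**
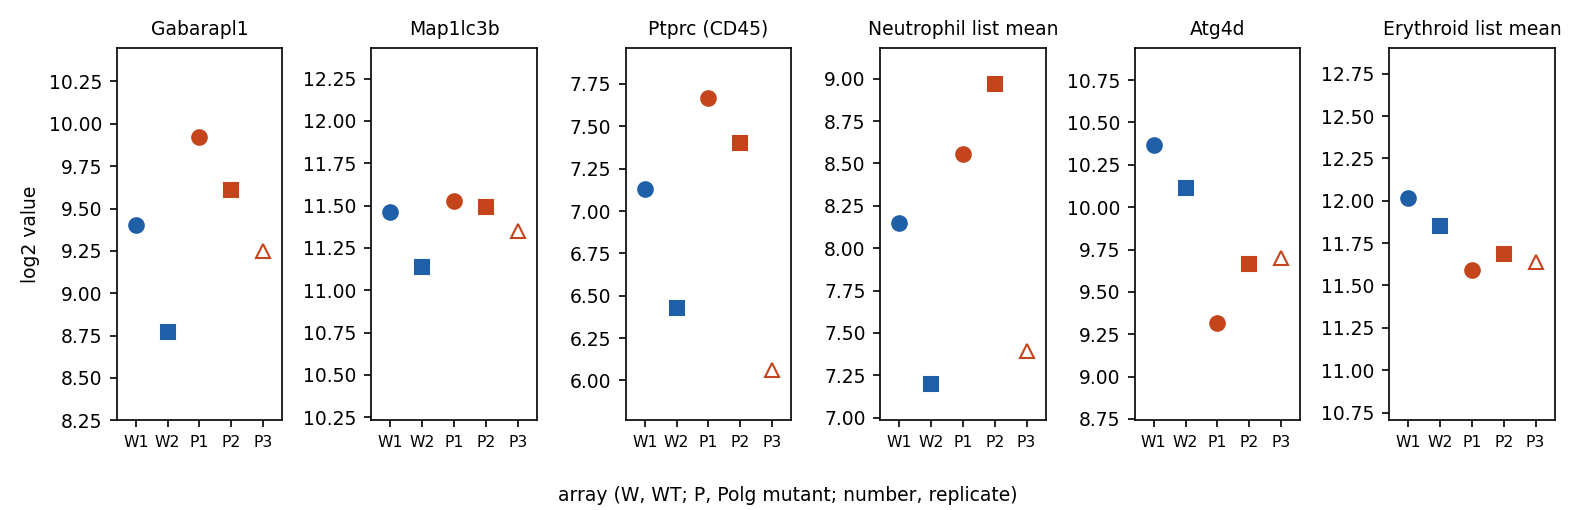
Log2 values on each array for Gabarapl1, Map1lc3b, Ptprc, the mean of 15 neutrophil markers, Atg4d and the mean of 9 erythroid markers, each panel spanning the same range of 2.2 log2 units. WT replicate 2 (W2) and Polg mutant replicate 3 (P3) are lowest in the first 4 panels, while Atg4d and the erythroid mean are lower on all 3 Polg mutant arrays.

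How many of the 10 genes separated the groups depended on single arrays. Without Polg mutant replicate 3, 6 of the 10 did not overlap, with Map1lc3b, Gabarap, Gabarapl1, Gabarapl2 and Atg4a all higher and Atg4d lower, against 25.1% of all genes. Without WT replicate 1, 4 did not overlap (Map1lc3b, Gabarapl1 and Atg7 higher, Atg4d lower), where 50.3% of all genes did not. Without WT replicate 2, 2 did not, Atg4b and Atg4d, both lower, against 43.8%. Without Polg mutant replicate 1 or 2 it was Atg4d alone, against 22.1% and 23.5%. After renewed quantile normalization of all 5 arrays 3 did not overlap, Map1lc3b higher and Atg4b and Atg4d lower, against 31.1%. Atg4d was lower in each of these subsets, which its separation on all 5 arrays already implies. The direction of Map1lc3b, Gabarap, Gabarapl2, Atg4a and Atg4c turned in at least 1 of the subsets.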

How the data were processed

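Cells of 2 WT and 3 Polg mutant samples gave 1 array each, from 100 ng of total RNA, per the labels' protocols. The authors deposited log2 values for each probe set, 1 column per array. Per the submitters' processing notes the tools were RMA and Partek 6.5, whose roles are not stated. The annotation and genome build are not given in the sources used here. That the scale is log2 follows from the range, 1.43 to 14.1. The deposited values were used unchanged, without a measure of signal over background, and the number of arrays limits the precision.

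Probe sets with 1 symbol in the platform annotation (23521) were kept, the brightest per gene by its mean over all arrays. Of the genes, 21994 were found in the RefSeq table by Entrez ID, each with the same symbol. The genotypes were tested by limma (3.58.1, under R 4.3.3), with genotype as the single term and variance moderation without a trend (prior SD 0.0376, 0.730 prior degrees of freedom). Tests were two-sided, with Benjamini-Hochberg adjustment over all genes. Intervals are at 95% and unadjusted. The fit was tested on simulated data without ties, which does not show how it behaves on tied values. Alternatives were a variance trend, no moderation, a filter on dim genes (log2 above 6 on at least 2 arrays), untied genes alone, renewed quantile normalization, median centring, the mean of probe sets, a replicate block and each array left out. The 10 genes and all lists were chosen with earlier results of these data known. Named from each list were up to 5 genes of smallest p, and for the member of smallest p the 3 genes of highest r.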

Additional observations from a re-analysis of the deposited data

How the results depend on the processing

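No alternative put any of the 10 genes past the adjusted threshold. The variance trend, no moderation, both filters and the mean of probe sets could not change the difference of Atg4d, -0.68, since it has 1 probe set. Leaving out an array could not reverse its direction. Atg4d was lower in all 13 alternatives, by -0.81 to -0.55 (limma adjusted p from 0.0990 to 0.658). Its unadjusted limma p was under 0.05 in 11 of these, the exceptions being the replicate block, with a difference of -0.75, and the fit without WT replicate 1, with -0.55. Over all genes, counts past the threshold were 4 higher and 1 lower without moderation, 6 and 5 among genes above a log2 of 6, 73 and 41 among untied genes, 8 and 1 after renewed quantile normalization, and 0 to 713 higher and 0 to 1068 lower when 1 array was left out, with the 713 and 1068 from the fit without WT replicate 1 and 511 and 413 from the one without WT replicate 2, both of which take a single WT array to vary like the mutant ones. The replicate block gives the same differences as leaving out Polg mutant replicate 3, which has no WT array of its number. With the block the counts were 0 and 0, the difference of Atg4a was 0.0044, and that of Gabarapl1 was 0.68 ± 0.12 (SE, limma adjusted p = 0.510). Gabarapl1 was then the 1 gene of the 10 at an unadjusted p under 0.05, as Atg7 was without WT replicate 1. Deviations of same-numbered arrays correlated at 0.19 and -0.20, with 2 pairs, so the numbers were not taken to pair the samples. Leaving out 1 array gave -0.0097 to 0.32 for Map1lc3b, -0.016 to 0.050 for Gabarap, -0.014 to 0.072 for Gabarapl2, -0.12 to 0.0044 for Atg4a and -0.0071 to 0.18 for Atg4c. Atg7 differed by -0.00096 after renewed quantile normalization. Map1lc3a, Atg4b, Atg4c and Atg7 have ties and Atg4c is dim, so the filters on these gave them no value. The causes of these changes were not tested.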
